A study of Homo sapiens with 4 samples.

Results

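The 10 genes described here encode amino acid transporters of the cell surface and were picked by symbol, as SLC1A3, SLC1A4, SLC1A5, SLC3A2, SLC6A9, SLC7A1, SLC7A5, SLC38A1, SLC38A2 and SLC43A2, from the 23228 genes of the count tables. All 10 were counted in every sample and passed the filter on low counts. RNA was sequenced from ES2 cells, an established human ovarian cancer line, after 24 h in vehicle or in 100 μM liquiritigenin (Liq), a plant flavanone used as an agonist of estrogen receptor beta. Both groups held 2 samples and shared the same phenol red-free medium with charcoal-stripped serum. Labels do not say whether the 2 samples of a group came from separate cultures, so p-values measure only the spread between these samples, which may be technical.

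Amino acids carry charge and cross the plasma membrane only through carriers. SLC1A4 carries serine, alanine and cysteine with sodium, and SLC38A2, SLC38A1 and SLC1A5 carry small neutral amino acids and glutamine with sodium. SLC7A5 exchanges them for leucine and other large neutral amino acids after it has joined the heavy chain SLC3A2, which carries it to the membrane. Proliferating tumor cells commonly depend on this route, since leucine and glutamine feed protein synthesis and mTORC1. Several of these genes are textbook targets of ATF4, a transcription factor made when amino acids run short, which binds composite elements (CARE) that join a C/EBP and an ATF sequence. MYC and NRF2 are other known regulators of members of this group.

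RefSeq promoter sequences (GRCh38.p14, 250 bases before to 50 bases after a start) were matched for all 10 genes and gave 20 windows. They are shown because ATF4 is the best known common regulator of these genes and the changes can be read beside them. TGATGNAA, the CARE core, was searched on both strands and was found in 6 of the 20 windows, each of a different gene, against 3.62% of 35116 promoter windows of the same length. The 30 bases around each match follow, with the match in capitals, read along the strand of the gene.

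SLC1A3 (chr5:36596357-36596386, plus strand): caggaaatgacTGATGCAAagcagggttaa
SLC1A4 (chr2:64989381-64989410, plus strand): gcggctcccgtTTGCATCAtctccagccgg
SLC1A5 (chr19:46784893-46784922, minus strand): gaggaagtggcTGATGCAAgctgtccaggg
SLC3A2 (chr11:62881719-62881748, plus strand): gtaatgtgcaggactccTTACATCAgctcc
SLC7A1 (chr13:29595663-29595692, minus strand): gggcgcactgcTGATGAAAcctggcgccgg
SLC38A1 (chr12:46266502-46266531, minus strand): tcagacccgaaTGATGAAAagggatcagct

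Distances are from the start of the window that held the match, which was the most upstream of the starts of SLC1A3 and the most downstream of those of SLC1A4, SLC1A5, SLC3A2 and SLC38A1. The match lay 220 bases before the start in SLC1A3 and 97 bases before it in SLC1A5, and the first base of the printed match lay 7 bases before it in SLC1A4 and 4 bases before it in SLC38A1. In SLC7A1 and SLC3A2 it lay 7 and 37 bases after the start. SLC6A9, SLC7A5, SLC38A2 and SLC43A2 had no match in these windows, which says only that these letters are not there. The antioxidant response element core TGACNNNGC, bound by NRF2, was in 5 of the 20 windows (1 each of SLC1A3, SLC1A5, SLC3A2, SLC7A1 and SLC7A5) and in 13.3% of all windows. The E-box CACGTG, bound by MYC, was in 2 of the 20 windows (SLC1A5 and SLC7A5), near the 7.26% of all windows. Promoter stretches of 3 genes are printed next, SLC6A9 because it changed most and SLC3A2 and SLC7A5 because they encode the chains of a single transporter and had estimates of opposite sign. Capitals mark any match of the 3 motifs that lies wholly within the 250 bases before the start, with no overlap between motifs.

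SLC6A9 (chr1:44031463-44031712, minus strand): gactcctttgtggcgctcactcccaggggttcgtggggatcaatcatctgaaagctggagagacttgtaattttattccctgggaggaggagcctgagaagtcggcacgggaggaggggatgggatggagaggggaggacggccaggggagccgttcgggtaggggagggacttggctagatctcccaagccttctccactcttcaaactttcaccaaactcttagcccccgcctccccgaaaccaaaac
SLC3A2 (chr11:62881449-62881698, plus strand): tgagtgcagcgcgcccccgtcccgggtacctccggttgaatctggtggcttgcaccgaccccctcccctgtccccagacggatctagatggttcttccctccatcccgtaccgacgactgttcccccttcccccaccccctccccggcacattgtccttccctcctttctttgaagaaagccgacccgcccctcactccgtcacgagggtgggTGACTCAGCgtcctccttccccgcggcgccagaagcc
SLC7A5 (chr16:87869508-87869757, minus strand): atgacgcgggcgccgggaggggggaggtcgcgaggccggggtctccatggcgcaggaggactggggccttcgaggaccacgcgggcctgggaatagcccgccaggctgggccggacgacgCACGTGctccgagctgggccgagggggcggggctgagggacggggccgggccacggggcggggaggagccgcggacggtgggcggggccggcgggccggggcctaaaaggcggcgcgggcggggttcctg

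SLC6A9 held none of the motifs here, SLC3A2 the antioxidant element TGACTCAGC, and SLC7A5 an E-box. A further antioxidant match of SLC7A5 began 2 bases before the start and crosses it. Of the 3 SLC3A2 start sites in RefSeq, the stretch shown is the one whose window held the matches. A match describes the letters and was not tested as a site.

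Libraries held 34573053 to 48933893 reads on genes, and the 10 transporters took up 0.205% and 0.207% of them in vehicle and 0.207% and 0.217% in Liq. Levels are given as CPM, counts scaled by edgeR to a common library size with TMM factors, where 3 counts equal 0.0598 to 0.0844 CPM, a limit that covers counting error only. Counts of the 10 genes ran from 196 to 27612 a sample, well above it. Liq replicate 1 had the largest share of reads outside annotated genes, 9.16% against 7.75% to 8.36% in the other 3 libraries. Of 11 ovarian and epithelial markers, KRT7, KRT8, KRT18, WT1 and PAX8 passed the filter, whereas EPCAM had 1 to 3 counts a sample and CDH1 and MSLN had 0. Of these 5, KRT7 rose by 0.51 on the log2 scale, and PAX8, WT1 and KRT18 fell by 1.34, 0.68 and 0.24. KRT8 was tested and its adjusted p-value from edgeR was 0.3181, not under 0.05. The summed level of the 11 was 459 to 499 CPM in vehicle and 531 to 577 CPM in Liq. Of 7 fibroblast and mesenchymal markers, PDGFRB and COL1A1 rose by 0.97 and 0.17, and vimentin (VIM) fell by 0.28, from 7479 ± 178 to 6176 ± 431 CPM (SD, n = 2). COL1A2 had 3 to 7 counts a sample, COL3A1, DCN and LUM had 0 or 1, and these were not tested. Of 5 endothelial markers, KDR fell by 0.79 and CDH5 did not pass. PECAM1, TEK and VWF had 1 to 10 counts a sample and were not tested. The part of these markers in the results was not tested. The leukocyte marker PTPRC had 0, 0, 0 and 1 counts, and of 9 immune markers only CD68 passed the filter. The CD68 means were 71.0 ± 4.5 CPM without Liq and 71.9 ± 7.8 CPM with it (SD, n = 2). ESR2, which encodes the receptor that Liq is used to engage, had 4 and 7 counts in vehicle and 5 and 14 in Liq and was not tested.

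Most of the transporter transcripts differed little between Liq and vehicle. Glycine transporter SLC6A9 was the single gene past 1.5-fold, at 1.67-fold (95% interval 1.38 to 2.03). Small increases of SLC1A4 and SLC3A2 passed the adjusted p-value alone, and the remaining 7 genes did not pass. For those 7, the 95% intervals of the fold change lay between 0.842 and 1.28, so a change of 1.5-fold lay outside each of them. Calls came from edgeR's quasi-likelihood test over 13546 genes with Benjamini-Hochberg adjustment. At 1.5-fold and an adjusted p-value under 0.05, 1 of the 10 transporters was called higher and 0 lower (0 lower with the DESeq2 Wald test too), where 4.29% of all tested genes were higher and 2.16% lower. At the adjusted p-value alone the counts were 3 higher and 0 lower, against 12.6% and 11.3% of all tested genes. No transporter fell at an unadjusted p-value under 0.05 either, where the smallest unadjusted p-value among the genes with lower means was 0.1236, that of SLC7A5. The median log2 fold change was 0.032 over the 10 transporters and 0.006 over all tested genes. Both Liq samples lay above both vehicle samples for 4 of the 10 genes and below them for 2, against 31.5% and 30.2% of all tested genes. In bulk RNA, fewer cells that express a gene and less RNA per cell cannot be told apart.

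**Figure D1:**
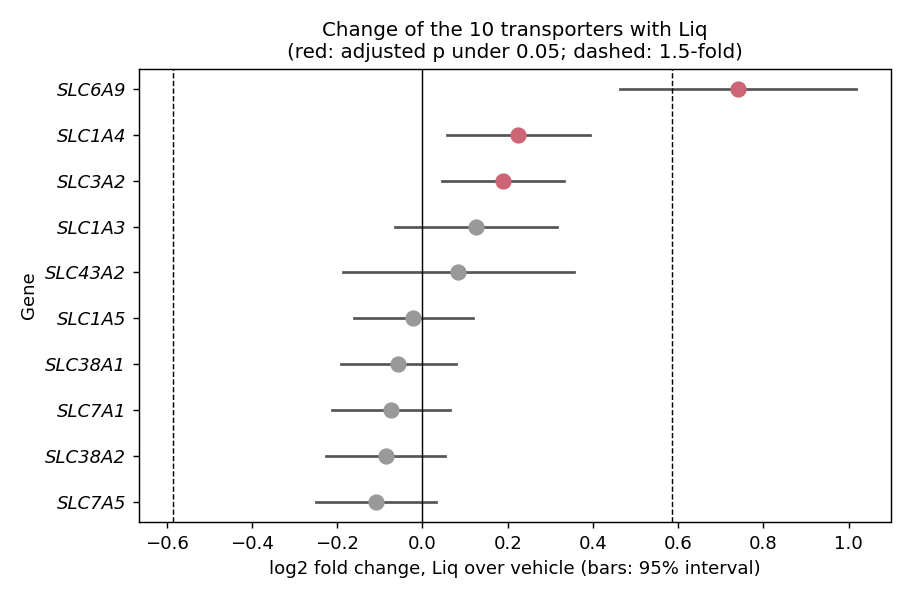
Horizontal axis, log2 fold change of Liq over vehicle from edgeR; vertical axis, the 10 transporter genes. Points are estimates (red where the adjusted p-value is under 0.05, grey otherwise), bars are 95% intervals and dashed lines mark 1.5-fold. SLC6A9 at 0.74 is the only point beyond a dashed line, and the other points lie between -0.11 and 0.23.

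By group means per length of the canonical transcript, the order of levels among the transporters was the same in vehicle and in Liq. Levels were compared per length, as CPM per kilobase of the canonical GENCODE transcript (RPKM). SLC38A2 was highest at 114 ± 3.8 RPKM in vehicle (SD, n = 2), followed by SLC3A2 at 93.8 ± 4.0, SLC1A5 at 87.0 ± 3.4, SLC38A1 at 65.9 ± 2.4 and SLC7A5 at 61.4 ± 3.0 RPKM. SLC7A1 stood at 32.7 ± 0.7 RPKM. Well below these came SLC1A4 at 9.73 ± 0.26, SLC1A3 at 7.09 ± 0.38, SLC6A9 at 1.62 ± 0.01 and SLC43A2 at 0.721 ± 0.063 RPKM. The range from first to last was 159-fold. With Liq the ranges of SLC38A2 (101 to 115 RPKM) and SLC3A2 (106 to 108 RPKM) overlapped, so these neighbours did not differ beyond their spread. The place of SLC3A2 depends on the length used, since the exons of all its annotated transcripts together span 6392 bases against 1885 in the canonical one. With the longer length, a choice made after the data had been seen, SLC3A2 stood at 27.7 RPKM in vehicle and ranked 6 of 10. SLC1A3 then stood at 1.31 RPKM in vehicle. The order also changed between the groups with that length. SLC7A1, at 31.3 RPKM, was above SLC3A2 in vehicle, whereas in Liq SLC3A2 stood at 31.5 RPKM and SLC7A1 at 29.7 RPKM.

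**Figure D2:**
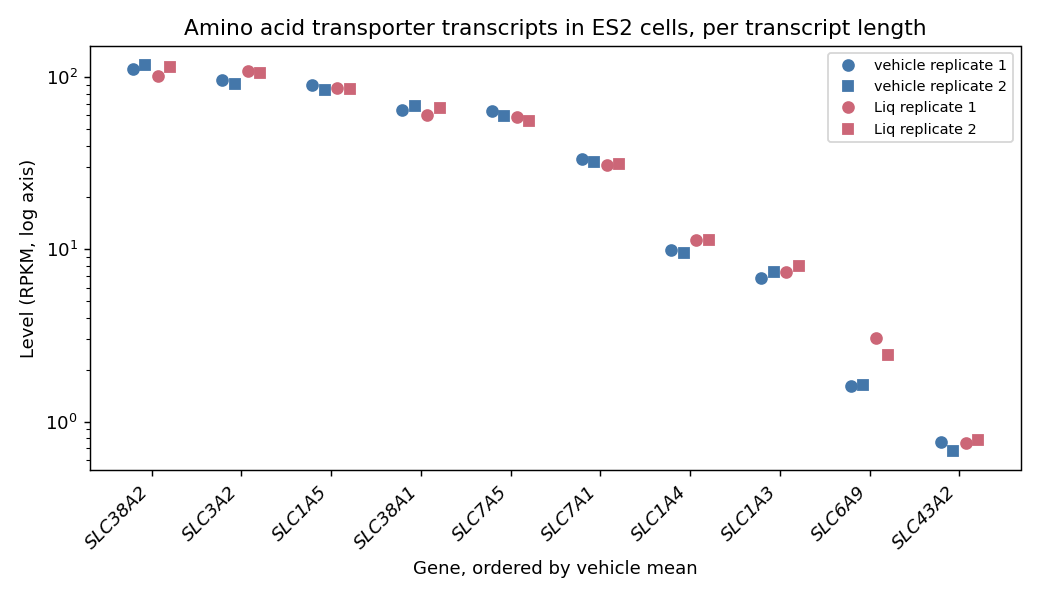
Vertical axis, RPKM on a log scale; horizontal axis, the 10 genes ordered by their vehicle mean. Each point is 1 sample, blue for vehicle and red for Liq. The first 6 genes sit above 30 RPKM in every sample, and the gap between the groups is widest for SLC6A9.

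Both sodium-coupled neutral amino acid transporters of the SLC38 family, which concentrate glutamine and alanine in the cell, had the most reads of the set. SLC38A2 (GRCh37, chr12:46751971-46766556), the form that cells induce under amino acid shortage, had 536 and 562 CPM in vehicle and 483 and 550 CPM in Liq. These samples overlap, and the log2 fold change was -0.09 (SE 0.07 and adjusted p = 0.3819 from edgeR). SLC38A1, its neighbour (chr12:46576846-46663800), had 520 and 548 CPM in vehicle and 488 and 538 CPM in Liq, again with overlap (log2 fold change -0.06, SE 0.07 and adjusted p = 0.5716). In both genes Liq replicate 1 was the lowest of the 4 samples. Reads of SLC38A1 per read of SLC38A2 were 0.971 and 0.975 in vehicle and 1.01 and 0.978 in Liq.

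In the SLC1 family, SLC1A5 (ASCT2, GRCh37 chr19:47278140-47291851) is the main glutamine exchanger of many tumor cells. Its samples overlapped, with 258 and 244 CPM in vehicle and 250 and 244 CPM in Liq. The log2 fold change was -0.02 (SE 0.07 and adjusted p = 0.8557), with a 95% interval of the fold from 0.895 to 1.09. SLC1A4 (ASCT1, chr2:65215611-65250999), a relative that carries serine, alanine and cysteine, had 45.2 and 43.6 CPM in vehicle and 51.9 and 51.9 CPM in Liq. Both Liq samples were higher, and SLC1A4 rose by 0.23 on the log2 scale (SE 0.08 and adjusted p = 0.04604), or 1.17-fold. That call is close to the threshold and was lost without vehicle replicate 1 (adjusted p = 0.2409), without vehicle replicate 2 (0.3700), without the filter on low counts (0.06158) and with the DESeq2 Wald test (0.06803), with log2 fold changes of 0.20 to 0.25 over all alternatives. The call was kept in the other 7 of 11 alternative fits, from adjusted p = 0.04981 with DESeq2 size factors to 0.007748 with the replicate number as a block, both from edgeR. Reads of SLC1A4 per read of SLC1A5, a measure that does not rest on scaling between samples, were 0.176 and 0.179 in vehicle and 0.207 and 0.213 in Liq. SLC1A3 (EAAT1, chr5:36596690-36688436), a high-affinity glutamate and aspartate carrier best known from glia, had 26.7 and 28.9 CPM in vehicle and 29.1 and 31.4 CPM in Liq. Its Liq samples lay just above the vehicle samples, and the change did not pass (log2 fold change 0.13, SE 0.09 and adjusted p = 0.3435).

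SLC7A5 (LAT1, GRCh37 chr16:87863629-87903113) and SLC3A2 (CD98 heavy chain, chr11:62623476-62656352) encode the chains of the leucine exchanger, and their estimates had opposite signs. SLC7A5 had 290 and 270 CPM in vehicle and 266 and 254 CPM in Liq. Its Liq samples were the lower ones, but the change did not pass the test (log2 fold change -0.11, SE 0.07 and adjusted p = 0.2608). SLC3A2 had 182 and 172 CPM in vehicle and 203 and 200 CPM in Liq, and rose by 0.19 on the log2 scale (SE 0.07 and adjusted p = 0.04987). This call sits at the threshold. It was kept in 5 of 11 alternative fits, among them upper-quartile scaling (adjusted p = 0.02583), loess offsets (0.008279) and the replicate number as a block (0.004386), all from edgeR. It was lost without vehicle replicate 1 (adjusted p = 0.2026), without vehicle replicate 2 (0.4596), without Liq replicate 1 (0.07611), with DESeq2 size factors (0.05533), without the filter on low counts (0.06645) and with the DESeq2 Wald test (0.06172). The light chain had 1.59 and 1.58 reads for each read of SLC3A2 in vehicle and 1.31 and 1.27 in Liq, a mean of 1.58 ± 0.01 against 1.29 ± 0.03 (SD, n = 2) and a relative difference of -18.6%. These groups did not overlap, and with 2 samples against 2 an exact two-sided permutation test cannot give a p-value below 0.3333. The ratio is of reads without correction for length, so it does not give the number of transcripts of each chain. In vehicle SLC7A5 and SLC3A2 stood at 61.4 and 93.8 RPKM by canonical length, and at 58.8 and 27.7 RPKM by all exons. SLC7A11, the cystine and glutamate exchanger that uses the same heavy chain, had 60.8 and 64.8 CPM in vehicle and 147 and 176 CPM in Liq. Its reads per read of SLC3A2 went from 0.334 and 0.378 in vehicle to 0.724 and 0.879 in Liq.

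**Figure D3:**
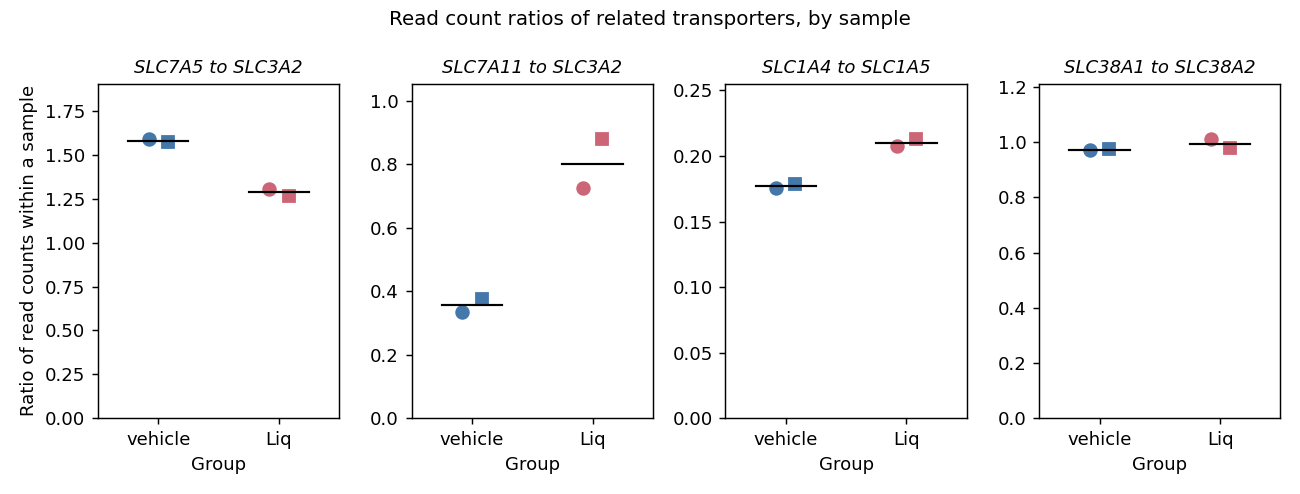
Vertical axes, the ratio of read counts of 2 genes within a sample, from 0; horizontal axes, the group. Circles are replicate 1, squares replicate 2 and lines group means. SLC7A5 to SLC3A2 is lower in both Liq samples (1.31 and 1.27 against 1.59 and 1.58), SLC7A11 to SLC3A2 and SLC1A4 to SLC1A5 are higher, and SLC38A1 to SLC38A2 stays between 0.971 and 1.01.

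SLC7A1 (CAT1, GRCh37 chr13:30083551-30169825), the main carrier of arginine and lysine in most cells, needs no heavy chain. It had 244 and 237 CPM in vehicle and 227 and 229 CPM in Liq. Both Liq samples were below both vehicle samples by a small margin, and the change did not pass (log2 fold change -0.07, SE 0.07 and adjusted p = 0.4580). SLC43A2 (LAT4, chr17:1472562-1532180), a sodium-independent carrier of leucine, phenylalanine and methionine, was the lowest of the set per transcript length. With 6.23 and 5.50 CPM in vehicle and 6.07 and 6.36 CPM in Liq, its groups overlapped (log2 fold change 0.08, SE 0.13 and adjusted p = 0.6898).

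SLC6A9 (GLYT1), the sodium- and chloride-coupled glycine transporter, showed the largest change of the set. It had 213 and 196 counts in vehicle and 347 and 390 in Liq, or 5.18 and 5.24 CPM against 9.76 and 7.77 CPM. The vehicle samples were nearly equal, both Liq samples were higher, and Liq replicate 1 was the highest. SLC6A9 rose by 0.74 on the log2 scale (SE 0.13 and adjusted p = 0.0002129 from edgeR). Without Liq replicate 1, the library with the largest share of reads outside genes, the log2 fold change was 0.58 (adjusted p = 0.0009436), which falls just short of 1.5-fold, and without Liq replicate 2 it was 0.90. The part of that share in the result was not tested. Among the 4001 tested genes under 10 CPM, 15.6% passed both thresholds, against 1.93% of the 4873 genes over 50 CPM, where 6 of the transporters lie. SLC6A9 (GRCh37, chr1:44457172-44497139, minus strand, GENCODE) overlaps CCDC24 on the plus strand (chr1:44457031-44462200), and 413 exonic bases, 7.87% of those of SLC6A9, are shared. Whether reads were counted by strand is not given in the sources used here, so reads of that stretch are uncertain. Reads overlapping both SLC6A9 and CCDC24, which the count tables do list, may have been left out as overlapping several genes. The strand question also holds for 23.4% of the exonic bases of SLC1A5 and 5.69% of those of SLC7A5. These lie across from long noncoding RNAs that the count tables do not list. CCDC24 had 121 and 112 counts in vehicle and 192 and 217 in Liq and rose by 0.70 on the log2 scale (SE 0.16 and adjusted p = 0.002193).

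Over the 4 samples, the 5 tested genes whose centred log2 CPM lay closest to that of SLC6A9 were SPPL2B, CCDC24, POLN, LOC100129534 and ADPRHL1, at Euclidean distances of 0.0336 to 0.0697. SPPL2B had 17.4 CPM in both vehicle samples and 33.2 and 25.7 CPM in Liq. All 5 were higher in Liq replicate 1 than in Liq replicate 2, like SLC6A9. With 4 samples this is a description of 1 shape only.

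Beyond these 10 genes, 42 other carriers of amino acids, cystine or taurine were listed from general knowledge, with earlier results of these data known. Of the 42 carriers, 22 were tested. Of these, 9 rose and 1 fell at the adjusted p-value, and 5 rose by at least 1.5-fold, where 12.6% and 11.3% of all tested genes passed higher and lower and 4.29% rose by 1.5-fold. The median log2 fold change was 0.165, against 0.006 over all tested genes. Besides SLC7A11, SLC38A4 (SNAT4), a carrier of neutral amino acids, rose by 1.14 on the log2 scale (SE 0.19 and adjusted p = 8.26e-05) from 59 and 59 counts to 107 and 180. SLC7A3, a cationic amino acid carrier, rose by 1.18 (SE 0.27 and adjusted p = 0.002431) from 30 and 21 counts to 46 and 81. SLC1A1 (EAAT3), a glutamate and cysteine carrier, rose by 0.45 (adjusted p = 0.001306), and the taurine transporter SLC6A6 rose by 0.44 (adjusted p = 0.001387). The others, named after their values were seen, were SLC7A8 and SLC1A2, which rose by 0.68 and 0.89, SLC6A17 and CTNS, which rose by 0.29 and 0.25, and the proton-coupled carrier SLC36A4, which fell by 0.44. Apart from SLC7A11, the carriers past 1.5-fold stood under 4 CPM in both groups. Among all tested genes under 10 CPM, 15.6% passed both thresholds, higher or lower. The counts moved to 4 higher, 0 lower and 3 past 1.5-fold without vehicle replicate 2, and to 5 higher and 3 past 1.5-fold with the DESeq2 Wald test or with loess offsets along the expression level. Leaving out Liq replicate 1 or Liq replicate 2, or using no filter on low counts, gave 2 lower. Loess offsets also turned the split of all 1.5-fold calls from 581 higher and 293 lower to 352 and 389.

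**Figure D4:**
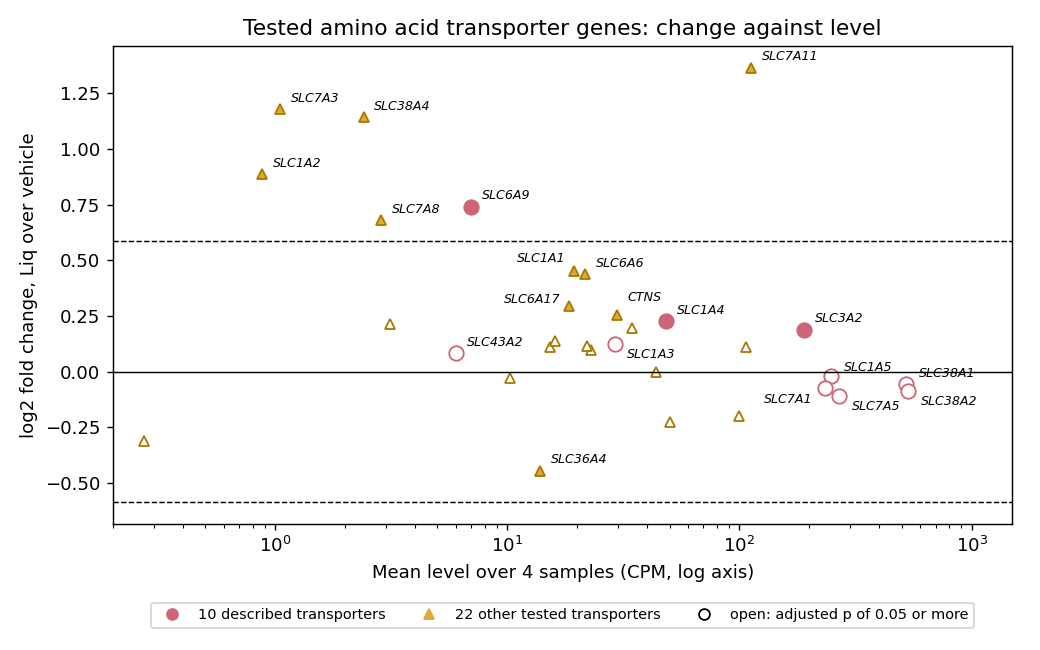
Horizontal axis, mean CPM over the 4 samples on a log scale; vertical axis, log2 fold change of Liq over vehicle from edgeR. Circles are the 10 transporters described, triangles the 22 other tested carriers, filled where the adjusted p-value is under 0.05, and dashed lines mark 1.5-fold. SLC7A11 is the only gene over 50 CPM beyond a dashed line, and the circles at the right lie near 0.

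ATF4 itself, the regulator of amino acid shortage, had 304 and 306 CPM in vehicle samples against 304 and 296 CPM in the Liq samples, a log2 fold change of -0.02 (adjusted p = 0.8313). Of 30 tested genes of its pathway, 6 rose and 4 fell at the adjusted p-value, 2 of the former by at least 1.5-fold, and the median log2 fold change was 0.058. Over all tested genes 12.6% were higher and 11.3% lower, so the lower count was near that share. NUPR1 and DDIT4, both stress-response genes, rose by 0.82 and 0.63 on the log2 scale (adjusted p = 9.678e-05 and 1.689e-05), and PYCR1, of proline synthesis, rose by 0.35. PPP1R15A, which restarts translation after stress, fell by 0.49 (adjusted p = 6.115e-06), and STC2 fell by 0.33. ASNS, the asparagine synthetase gene that commonly marks this response and was named after its value was seen, had a log2 fold change of 0.15 (adjusted p = 0.1292). Without vehicle replicate 2 the counts were 2 higher, 1 of them by 1.5-fold, and 1 lower, without vehicle replicate 1 there were 2 lower, and without Liq replicate 1 there was 1 past 1.5-fold. Upper-quartile scaling gave 2 lower, and loess offsets gave 9 higher and 3 lower.

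Of 32 tested genes of amino acid sensing and mTORC1, 4 rose and 1 fell at the adjusted p-value, and the median log2 fold change was 0.024. The number higher was near the 12.6% of all tested genes, and the number lower stood against 11.3%. SESN3, of the sestrin family that restrains mTORC1, was the only gene of the list past both 1.5-fold and the adjusted p-value. It had 222 and 280 counts in vehicle and 532 and 806 in Liq, and rose by 1.28 on the log2 scale (SE 0.13 and adjusted p = 2.871e-08). FLCN, FNIP1 and TSC1, which encode regulators of mTORC1, rose by 0.35, 0.29 and 0.24, and SEH1L, of the GATOR2 and nuclear pore complexes, fell by 0.38. Without vehicle replicate 1 the number higher was 1 and without vehicle replicate 2 it was 2. The number lower was 3 without Liq replicate 1 and 2 without Liq replicate 2.

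Among 35 tested enzymes that make or use the carried amino acids, 4 rose and 3 fell at the adjusted p-value, with a median log2 fold change of -0.032, both counts near the 12.6% and 11.3% of all tested genes. ODC1, which turns the arginine product ornithine into polyamines, fell by 0.63 on the log2 scale from 803 ± 17 CPM to 518 ± 8 CPM (SD, n = 2, adjusted p = 1.593e-08). AMT, a component of the glycine cleavage system, rose by 0.79 from 4.94 and 6.09 CPM to 11.1 and 8.07 CPM (adjusted p = 0.0002607). CBS, of cysteine synthesis, and PYCR1 rose by 0.34 and 0.35. Without vehicle replicate 2 the counts were 1 higher and 1 lower, without vehicle replicate 1 there was 1 lower, and without Liq replicate 1 AMT was no longer past 1.5-fold. With loess offsets 7 were higher and 2 lower at the adjusted p-value, and 0 were lower by 1.5-fold.

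Of 12 tested genes listed as known or possible regulators of the transporters, 0 rose and 4 fell at the adjusted p-value by edgeR. Over all tested genes 12.6% were higher and 11.3% lower. The DESeq2 Wald test gave the same counts for the list. At an unadjusted p-value under 0.05, MYC was the 1 gene of the list with a higher mean. SGK1, a kinase known to raise the surface level of several carriers, fell from 198 ± 10 CPM to 97.2 ± 1.7 CPM (SD, n = 2), by 1.03 on the log2 scale (SE 0.07 and adjusted p = 5.325e-11). NEDD4L, a ubiquitin ligase for membrane transporters, fell by 0.29, NFE2L2, which encodes NRF2, fell by 0.27, and MAX, the partner of MYC, fell by 0.26. With vehicle replicate 1 or vehicle replicate 2 left out, 1 was lower, and upper-quartile scaling, loess offsets or leaving out Liq replicate 2 gave 1 higher. MYC had 292 and 285 CPM in vehicle and 345 and 307 CPM in Liq, which did not pass (log2 fold change 0.18, adjusted p = 0.06828). ESR1 had 17 to 34 counts a sample and a log2 fold change of 0.31 (SE 0.34 and adjusted p = 0.5539).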

How the data were processed

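RNA-seq was analysed for 4 samples of ES2 cells, 2 with vehicle and 2 with Liq, grouped by sample title. The dose is from the methods of the study. The authors deposited raw counts per gene, made with TopHat2 2.0.8b on hg19 and HTSeq, as named in the submitters' processing notes, without normalization. Reads aligned to several places (35.6% to 36.2% of those tallied) or overlapping several genes were left out by the counting. HTSeq's tally lines were kept out of all tests.

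In R 4.3.3 with edgeR 4.0.16, filterByExpr (minimum count 10, minimum total 15) kept 13546 of 23228 genes, and Liq was compared with vehicle by TMM, glmQLFit and glmQLFTest, with Benjamini-Hochberg adjustment over all tested genes. SE is the size of the log2 fold change over the square root of F. Reads per gene in 2 samples of a group differed beyond sampling noise (chi-square per degree of freedom 6.56 and 11.6). Lengths and hg19 coordinates are from GENCODE v44 lifted to GRCh37. Fits were tested on simulated data with changes of 2-fold and the same spread for every gene. Changes as small as those of SLC1A4 and SLC3A2 were not covered.

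The genes and lists were chosen with earlier results of these data known. The rule for named genes took all 10 members, at most 5 genes of each list by smallest p-value, SLC7A11, ATF4, MYC, ESR1 and ESR2, and the 5 genes nearest to the member with the smallest p-value. Of the genes this rule names, 1 is not reported here. Further carriers, ASNS and markers at or near 0 counts were named after their values were seen. Alternatives were DESeq2 size factors, upper-quartile scaling, loess offsets (span 0.3), no filter, at least 10 counts in every sample, DESeq2 1.42.0, a replicate block, leave-one-out fits and other call thresholds. Exon length was added after the data had been seen.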

Additional observations from a re-analysis of the deposited data

How the results depend on the processing

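Counts of at least 196 a sample kept the levels of these genes well above the limit of 3 counts. With 2 samples a group, the spread rests on what edgeR shares across genes. SLC6A9 and SLC43A2, with the fewest reads, had the largest SE of the 10 genes (0.1347 and 0.1321). SLC6A9 kept its direction and an adjusted p-value under 0.05 in all 11 alternative fits, with log2 fold changes from 0.58 to 0.90. Of the 110 alternative values of the 10 transporters, 100 kept their side of the adjusted p-value and 10 lost it, 4 of SLC1A4 and 6 of SLC3A2. Both of those genes kept their direction in all 11 fits. Transporters called higher at 1.5-fold numbered 1 as reported, 0 to 1 when a sample was left out (0 without Liq replicate 1), 0 at a fold of at least 2 and 3 with no fold threshold. All tested genes called numbered 874, against 570 with the DESeq2 Wald test, 328 at a fold of at least 2 and 3245 with no fold threshold. The fold thresholds set their own numbers, and the cause of the DESeq2 difference was not tested. Leaving out a sample gave 659 to 979 called genes. With the replicate number as a block 898 genes were called, and the same 3 transporters passed the adjusted p-value, while calls rose in the lists too, to 11 higher and 7 lower for the ATF4 pathway, 9 and 6 for enzymes, 6 and 4 for sensing genes, 10 and 3 for other carriers and 1 and 5 for regulators. Deviations of same-numbered samples had a correlation of 0.0359 over 13546 genes, and the numbers were not taken to pair samples. That correlation counts all genes alike, so it cannot decide pairing for these 10. With the block the SE was smaller for each of the 10 transporters. It was 0.0451 against 0.0698 for SLC3A2, 0.0433 against 0.0678 for SLC1A5 and 0.1245 against 0.1347 for SLC6A9. SLC1A5, SLC7A1, SLC38A1, SLC38A2 and SLC43A2, none of which passed in any fit, changed sign in 1 to 3 fits each.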
